A study of Homo sapiens with 105 samples.

Results

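The genes described here are 10 readouts of the extracellular signal-regulated kinase (ERK) pathway: ETV4 and ETV5, DUSP4, DUSP5 and DUSP6, SPRY2 and SPRY4, SPRED1 and SPRED2, and PHLDA1. They were chosen by symbol, as transcription factors of the PEA3 family, phosphatases that act on ERK, Sprouty and Spred inhibitors, and PHLDA1. The choice was made with earlier results of these data known, so the shares of all genes given below are no test of the set. Other members of these families, among them ETV1, SPRY1, SPRY3 and SPRED3, were placed in the wider lists described last. All 10 chosen genes were found among the 26330 gene symbols of each of 5 tables of RNA sequencing results. The study concerns adult granulosa cell tumors, most of which carry the C134W change in the transcription factor FOXL2, and the title of the series ties the mutant protein to SMAD4 and SMAD2/3. RNA came from HGrC1, a human granulosa cell line, carrying either a vector without an insert (EV), FOXL2 of wild type (WT) or the C134W mutant after transduction, and from KGN, a granulosa tumor line heterozygous for C134W. Cells were grown in serum-containing medium and were either stimulated with TGF, as the labels name it, or not. Each of the 6 HGrC1 groups has 3 RNA samples by the labels, KGN has 4 and KGN with TGF 5. The other 78 of the 105 samples, from chromatin immunoprecipitation, were not analysed here. The sources used here do not give the dose and time of TGF, the promoter that drives FOXL2 or whether the transduced cells were pools or clones. The labels do not say whether the samples of a group were grown as separate cultures, so the errors below measure the spread between samples, which may be technical.

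Growth factor receptors activate RAS, which switches on the kinases RAF, MEK and ERK in turn. Active ERK changes transcription, and many of the genes it induces restrain the pathway, so that their transcripts are often read as a record of ERK activity. In the granulosa cells of the ovary, ERK is known for carrying part of the response to the ovulatory hormone surge. ETV4 and ETV5 are ETS-family transcription factors whose genes respond to ERK. DUSP5 and DUSP6 remove phosphate from ERK in the nucleus and in the cytoplasm respectively, and DUSP4 is a nuclear phosphatase of ERK and other MAP kinases. Sprouty and Spred proteins act further up, on RAS and RAF, with SPRED proteins recruiting neurofibromin to the membrane. PHLDA1 encodes a pleckstrin homology-like domain protein whose gene is induced by growth factors and ERK and which has been linked to cell death and to restraint of receptor signaling.

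Promoter sequence was at hand for 6 of the 10 genes (DUSP6, PHLDA1, SPRED1, SPRED2, SPRY2 and SPRY4), and was not used for the other 4. These 6 genes have 9 annotated starts in the source, and only the outermost start of each gene was used. The stretches below are the 150 bases before that start, 5′ to 3′ on the gene's strand, from RefSeq on build GRCh38.p14. PHLDA1 and SPRY2 are shown because their C134W against WT difference depended most on TGF, and DUSP6 as the phosphatase most specific to ERK. Capitals mark matches to the ETS core CCGGAA or the SMAD box GTCTG on either strand. The ranges are chr12:76031777-76031926 for PHLDA1, chr13:80341127-80341276 for SPRY2 and chr12:89352502-89352651 for DUSP6, all on the minus strand.
PHLDA1: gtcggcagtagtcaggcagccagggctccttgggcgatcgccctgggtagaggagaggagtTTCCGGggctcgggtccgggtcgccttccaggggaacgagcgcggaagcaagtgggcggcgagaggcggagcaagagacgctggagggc
SPRY2: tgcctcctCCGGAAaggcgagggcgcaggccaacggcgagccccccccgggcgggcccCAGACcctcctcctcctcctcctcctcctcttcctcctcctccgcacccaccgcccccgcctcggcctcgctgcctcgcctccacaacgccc
DUSP6: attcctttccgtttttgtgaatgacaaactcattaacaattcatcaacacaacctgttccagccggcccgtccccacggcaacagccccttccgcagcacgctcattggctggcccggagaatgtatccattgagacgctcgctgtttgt
In the 250 bases before the start, searched on both strands, CCGGAA was found in 2 of the 6 genes, on the other strand 89 to 84 bases before the start of PHLDA1 and on the gene's strand 142 to 137 bases before that of SPRY2. It was found in 14.5% of all 35116 promoters of that length. GTCTG lay in SPRED1, SPRED2 and SPRY2, against 38% of all promoters. None of the 6 windows held the AP-1 letters TGANTCA, which 6.57% of all promoters held. None held the forkhead core TAAACA, found in 11% of promoters. The cyclic AMP response element TGACGTCA (1.65% of promoters), the TATA box (TATAAA, 10.7%) and the CArG box of serum response factor (1.16%) were likewise in none. A match in a window is a description of the letters and no record of binding.

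FOXL2 itself followed the labels. In the authors' deposited tables its log2 fold change between C134W and EV was 6.16 ± 0.24 with TGF and 6.27 ± 0.20 without. Between C134W and WT it was -0.27 ± 0.11 (adjusted p = 0.0339) with TGF and -0.13 ± 0.06 (adjusted p = 0.0902) without, per the authors' deposited tables. The implied FOXL2 level, in normalized reads, was 9.41 in EV without TGF and 8.31 with, 1483 and 1021 in WT, and 1348 and 843 in C134W, so every FOXL2 group carried FOXL2 far above the vector control. Of 14 granulosa markers, 9 reached a mean of 10 in some HGrC1 table and 11 in the KGN table. The FSH receptor gene FSHR was at or near 0 in all 5 tables, and NR5A1, which encodes the steroidogenic factor SF-1, was under 1 in HGrC1 and 829.9 in the authors' deposited table of KGN. Of 4 endothelial markers none reached 10 in HGrC1, and of 4 immune markers CD68 alone did, with a summed mean of the immune list of 26.6 to 47.9. All 5 epithelial markers reached 10 in HGrC1, and most moved with the groups. EPCAM was called in C134W against EV without TGF alone, at -0.73 ± 0.22 in the authors' deposited table. The summed implied level of all 5 is nearly all KRT8 and KRT18. Without TGF that sum was 38876 normalized reads in EV, 50063 in WT and 39103 in C134W, and with TGF 42589, 35022 and 16481. With TGF, 4 of the 5 were lower in C134W than in EV and 3 of 5 lower than in WT. Without TGF 2 were lower and 1 was higher than in EV, and 3 of the 4 tested were lower than in WT, all per the authors' deposited tables. Over all genes 20.2% were lower in C134W than in EV and 17.4% lower than in WT with TGF, and 12% and 11.5% without. KRT8 gave -1.42 ± 0.06 between C134W and EV with TGF and -0.00 ± 0.08 without, KRT7 gave -2.0 ± 0.08 and 0.75 ± 0.14, and CDH1 gave -2.80 ± 0.38 and -1.54 ± 0.29, in the authors' deposited tables. The 6 theca and stroma markers summed to between 16256 (EV without TGF) and 117898 (EV with TGF), nearly all of it COL1A1. Between C134W and EV, 1 of the 4 tested from this list was higher and 2 lower with TGF. Without TGF 1 of 2 was higher and 1 lower. DCN was lower in C134W than in EV at -2.88 ± 0.24 with TGF and -2.43 ± 0.20 without. PDGFRA was higher with TGF at 2.98 ± 0.39. COL1A1 gave -0.51 ± 0.06 with TGF and 0.92 ± 0.09 without, all in the authors' deposited tables. The part of these markers in the results below was not tested. Sequencing depth, recovered approximately from the deposited values, was 5490000 to 19600000 counted reads per HGrC1 library and 3590000 to 16500000 per KGN library. The KGN table behaved as 11 libraries, 6 of them without TGF, where the labels list 4.

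The first question is how cells with either FOXL2 protein differ from cells without. All 10 genes were higher with C134W than with EV, in both TGF states. The authors' deposited table with TGF called 10 of 10 higher at an adjusted p under 0.05 (DESeq2 Wald test), where 22.5% of the 15477 genes tested were called higher, 20.2% lower and 42.7% in either direction. The authors' deposited table without TGF also called 10 of 10 higher, against 13.7% higher, 12% lower and 25.7% in either direction of 13306 genes. The median log2 fold change of the 10 genes was 1.84 with TGF and 1.24 without, beside 0.00 over all genes tested in both. WT FOXL2 against EV has no table of its own. It was obtained as the difference between the 2 tables that share C134W, with an error that is too large because the C134W libraries cancel. By that z test 8 of 10 genes were higher in WT than in EV without TGF, against 12.2% higher, 10.4% lower and 22.6% in either direction of 12579 genes, and DUSP5 and SPRED2 did not pass. With TGF 8 were higher, 1 was lower and 1 did not pass, against 21.8% higher, 17.8% lower and 39.6% in either direction of 12680 genes. The median was 1.29 without TGF and 1.33 with. Dividing the statistics by their spread over all genes ended the WT against EV calls of DUSP5, DUSP6, SPRY2, SPRY4 and SPRED1 with TGF and of DUSP4 and SPRY2 without. For C134W against EV it ended those of DUSP5 and SPRED2 in both states and of SPRED1 with TGF.

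The second question is what distinguishes the mutant from the wild-type protein. With TGF, the authors' deposited table called 6 of the 10 genes higher in C134W than in WT (ETV4, ETV5, DUSP4, SPRY2, SPRED2 and PHLDA1), SPRED1 lower and 3 neither, where 17.3% of 14475 genes were called higher, 17.4% lower and 34.6% in either direction. The median of the 10 was 0.51. Without TGF, the authors' deposited table called 3 higher (DUSP4, DUSP5 and PHLDA1), 2 lower (ETV5 and DUSP6) and 5 neither, where 10.9% of 12463 genes were called higher, 11.5% lower and 22.4% in either direction, and the median was -0.02. Dividing the Wald statistics by their spread over all genes ended the calls of ETV5, SPRED1 and SPRED2 with TGF and of ETV5, DUSP5 and DUSP6 without. The comparisons against EV and against WT use the same C134W libraries, so their values are set side by side below and not correlated.

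**Figure D1:**
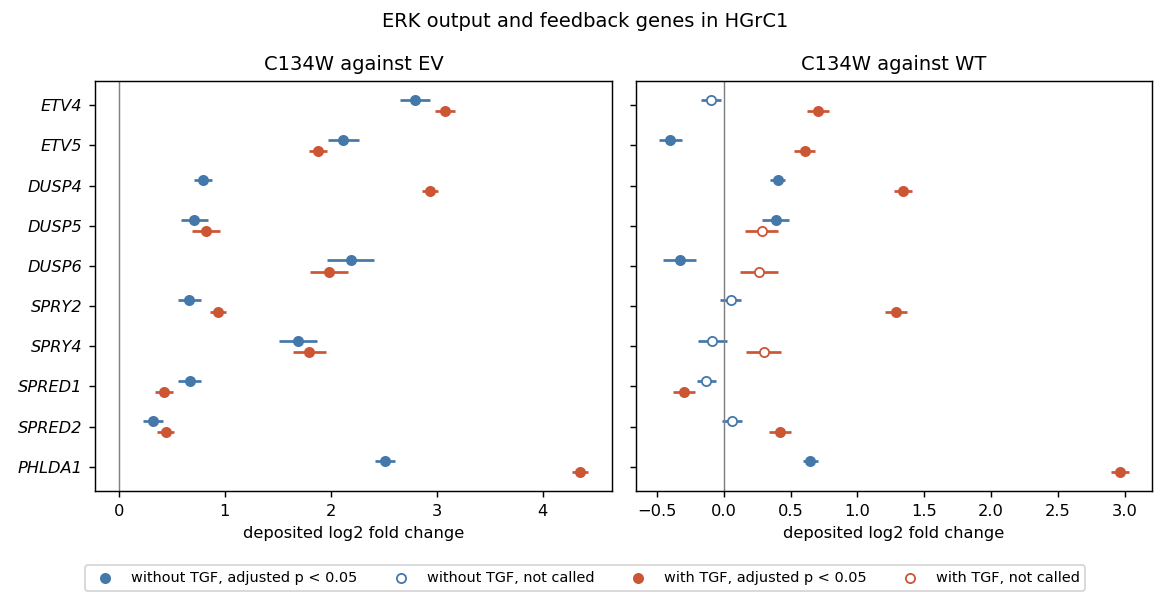
Deposited log2 fold change (x axis) of each of the 10 genes between C134W and EV (left) and between C134W and WT (right) in HGrC1, with TGF in red and without in blue. Bars are 1 deposited standard error, filled points have an adjusted p under 0.05, and all 20 points of the left panel lie above 0.

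The PEA3 factors ETV4 and ETV5 were several-fold higher in cells with either FOXL2 protein than in vector cells. The levels given for single groups were derived from each table's mean and fold change, so they carry an error but no values per library. The deposited fold changes are pulled towards 0. That pull was undone for the levels but, unless stated, not for the fold changes printed here, so ratios of levels can differ from them. ETV4 stood at 59.7 normalized reads in EV, 505 in WT and 469.7 in C134W without TGF, and at 156, 817 and 1348 with TGF, with errors of 0.06 to 0.13 on the log2 scale. EV was lowest in both TGF states, and without TGF the WT and C134W levels lay within 2 errors of each other. Between C134W and EV the log2 fold change of ETV4 was 3.08 ± 0.09 with TGF (adjusted p = 2.1e-230) and 2.80 ± 0.14 without (adjusted p = 2.93e-84) in the authors' deposited tables. WT exceeded EV by 2.90 ± 0.16 without TGF and 2.37 ± 0.13 with. Between C134W and WT, ETV4 was higher by 0.70 ± 0.09 with TGF (adjusted p = 4.81e-15) and gave -0.10 ± 0.08 without (adjusted p = 0.41) in the authors' deposited tables. On build GRCh38.p14 ETV4 (chr17:43527846-43546340) overlaps DHX8, an RNA helicase gene (chr17:43483975-43544799), and strand use in the counting is not given. DHX8 was called in none of the 5 tables, and its log2 fold change between C134W and EV with TGF was 0.08 ± 0.07 in the authors' deposited table.

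ETV5 (chr3:186046314-186109089) gave 72.5 normalized reads in EV, 473 in WT and 349 in C134W without TGF. With TGF the implied levels were 267, 648 and 993, with errors of 0.05 to 0.13 on the log2 scale. No 2 neighbours in this order lay within 2 errors of each other. The mutant lay below WT without TGF and above it with TGF. Those opposite differences both passed the test, at -0.40 ± 0.08 (adjusted p = 2.98e-05) and 0.61 ± 0.08 (adjusted p = 2.99e-13) in the authors' deposited tables. Against EV, ETV5 was higher in C134W by 2.12 ± 0.15 without TGF and 1.88 ± 0.09 with, per the authors' deposited tables. WT was higher than EV by 2.52 ± 0.17 without TGF and 1.27 ± 0.12 with.

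Of the ERK phosphatases, DUSP4 (chr8:29333064-29350684) was higher in C134W than in WT and EV in both TGF states. Its implied level in EV was 808 normalized reads without TGF and 249.5 with, in WT 1061 and 755, and in C134W 1417 and 1939.9, with errors of 0.04 to 0.07 on the log2 scale. The level with TGF was the lower one in EV and WT and the higher one in C134W. C134W exceeded EV by 2.94 ± 0.08 with TGF (adjusted p = 1.5e-301), the 27th largest Wald statistic of 15477, and by 0.80 ± 0.08 without (adjusted p = 3.73e-21) in the authors' deposited tables. Set against WT, DUSP4 was higher by 1.34 ± 0.07 with TGF (adjusted p = 1.4e-82) and by 0.40 ± 0.06 without (adjusted p = 2.31e-11) in the authors' deposited tables. WT exceeded EV by 1.59 ± 0.10 with TGF and by 0.39 ± 0.10 without.

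DUSP6 (chr12:89347235-89352501) was higher than EV in cells with either FOXL2 protein. Its counts were low, with an implied 17.5 normalized reads in EV, 145 in WT and 108 in C134W without TGF, and 47.3, 164 and 199 with TGF. Errors were 0.11 to 0.23 on the log2 scale, and the 2 highest groups, C134W and WT with TGF, lay within 2 errors. Between C134W and EV the fold change was 2.19 ± 0.22 without TGF and 1.98 ± 0.18 with, per the authors' deposited tables. The z test put WT above EV by 2.52 ± 0.26 without TGF and 1.72 ± 0.23 with. These values rest on deposited fold changes that are pulled towards 0, a pull that the levels have undone. With it undone C134W exceeded EV by 2.63 ± 0.27 without TGF and 2.07 ± 0.18 with. WT then exceeded EV by 3.05 ± 0.31 without TGF and 1.79 ± 0.24 with. Against WT the mutant was lower without TGF, at -0.33 ± 0.13 (adjusted p = 0.0397) in the authors' deposited table, a call that is lost at an adjusted p under 0.01. With TGF the value was 0.26 ± 0.14 (adjusted p = 0.141) in the authors' deposited table. A readthrough transcript with the neighbouring gene POC1B overlaps DUSP6 and has no row of its own, so its reads cannot be told apart.

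DUSP5 (chr10:110497907-110511533) spanned the least among the phosphatases. Its implied levels without TGF were 175 normalized reads in EV, 216 in WT and 294 in C134W, and with TGF 133, 195 and 239.7, with errors of 0.08 to 0.10 on the log2 scale. C134W exceeded EV by 0.83 ± 0.13 with TGF (adjusted p = 2.2e-09) and 0.71 ± 0.12 without (adjusted p = 1.6e-07) in the authors' deposited tables. It exceeded WT without TGF, at 0.39 ± 0.10 (adjusted p = 0.00117), and gave 0.28 ± 0.12 with TGF (adjusted p = 0.0618) in the authors' deposited tables. WT exceeded EV by 0.54 ± 0.18 with TGF and gave 0.33 ± 0.16 without (adjusted p = 0.139).

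Sprouty genes encode inhibitors that are induced by the receptors they restrain. SPRY2 (chr13:80335976-80341126) had an implied level of 282 normalized reads in EV, 438 in WT and 455 in C134W without TGF, and of 559.6, 433 and 1078 with TGF, with errors of 0.05 to 0.08 on the log2 scale. Without TGF the WT and C134W levels lay within 2 errors of each other, and with TGF the WT level was the lowest of the 3. In the authors' deposited tables the C134W against WT difference was 1.29 ± 0.08 with TGF (adjusted p = 1.42e-51) and 0.05 ± 0.08 without (adjusted p = 0.719). SPRY2 was the only one of the 10 genes called lower in WT than in EV, with TGF, at -0.35 ± 0.11 (adjusted p = 0.00685). Without TGF it was higher in WT, at 0.62 ± 0.13 (adjusted p = 3.14e-05). C134W exceeded EV by 0.94 ± 0.08 with TGF and 0.67 ± 0.10 without, per the authors' deposited tables.

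SPRY4 (chr5:142310430-142325021) was higher than EV with either FOXL2 protein and passed no test between the proteins. Its implied level was 47.0 normalized reads in EV, 185 in WT and 172 in C134W without TGF, and 58.3, 169.6 and 211 with TGF. All 4 FOXL2 groups formed a chain of neighbours within 2 errors, as did the 2 vector groups. Against EV it was higher in C134W by 1.80 ± 0.16 with TGF and 1.69 ± 0.18 without in the authors' deposited tables, and higher in WT by 1.50 ± 0.20 and 1.78 ± 0.21. Against WT neither state passed, with 0.30 ± 0.13 (adjusted p = 0.0617) with TGF and -0.09 ± 0.11 (adjusted p = 0.663) without in the authors' deposited tables. The 8299 genes with a mean of at least 100 in all 5 tables were ranked by the root mean squared difference of their 5 log2 fold changes from those of DUSP6. SPRY4 came first at 0.284, followed by CCDC85B at 0.387, GBP2 at 0.387 and PABPN1 at 0.398. DUSP6 itself lay outside that set, with a mean of 62.3 in C134W against EV without TGF, and its deposited fold changes were used. For ETV4 the nearest were ITGA1 at 0.565, SOX4 at 0.614, KIAA1549L at 0.680 and NAV3 at 0.680, and ETV5 was 7th at 0.695.

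With TGF, the Spred genes had the smallest of the 10 differences between C134W and EV. SPRED1 (chr15:38252836-38357249) gave implied levels without TGF of 356 normalized reads in EV, 632 in WT and 575 in C134W, and of 491, 819 and 662 with TGF. It was the only gene whose highest group was WT with TGF, and the only one called lower in C134W than in WT with TGF, at -0.30 ± 0.08 (adjusted p = 0.00179) in the authors' deposited table. C134W exceeded EV by 0.43 ± 0.08 with TGF and 0.67 ± 0.11 without in the authors' deposited tables, and WT exceeded EV by 0.73 ± 0.12 and 0.80 ± 0.13. SPRED2 (chr2:65307175-65432599) stood at 422 normalized reads in EV, 508 in WT and 531 in C134W without TGF and at 562, 569 and 765 with. The authors' deposited tables put it higher in C134W than in EV by 0.44 ± 0.08 with TGF and 0.32 ± 0.10 without, and higher in C134W than in WT by 0.42 ± 0.08 with TGF. WT against EV did not pass for SPRED2 in either state, at 0.02 ± 0.12 (adjusted p = 0.899) with TGF and 0.26 ± 0.12 (adjusted p = 0.111) without.

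PHLDA1 (chr12:76025447-76031776) had the largest of the 10 differences between C134W and WT in both TGF states. Its implied level without TGF was 235 normalized reads in EV, 881 in WT and 1405 in C134W, with errors of 0.04 to 0.08 on the log2 scale. With TGF the levels were 229, 596 and 4787. The vector level lay within 2 errors of itself in both states, the WT level was the lower one with TGF, and the C134W level stood far above all other groups. Against WT with TGF the log2 fold change was 2.96 ± 0.07, with the largest Wald statistic of all 14475 genes tested and the 21st largest fold change, in the authors' deposited table. Without TGF it was 0.65 ± 0.06 (adjusted p = 8.07e-27) in the authors' deposited table. Against EV it was 4.35 ± 0.08 with TGF, the 5th largest Wald statistic, and 2.51 ± 0.10 without (adjusted p = 1.32e-148), the 10th, in the authors' deposited tables. WT exceeded EV by 1.86 ± 0.11 without TGF (adjusted p = 9.65e-60) and by 1.39 ± 0.10 with (adjusted p = 5.83e-38).

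**Figure D2:**
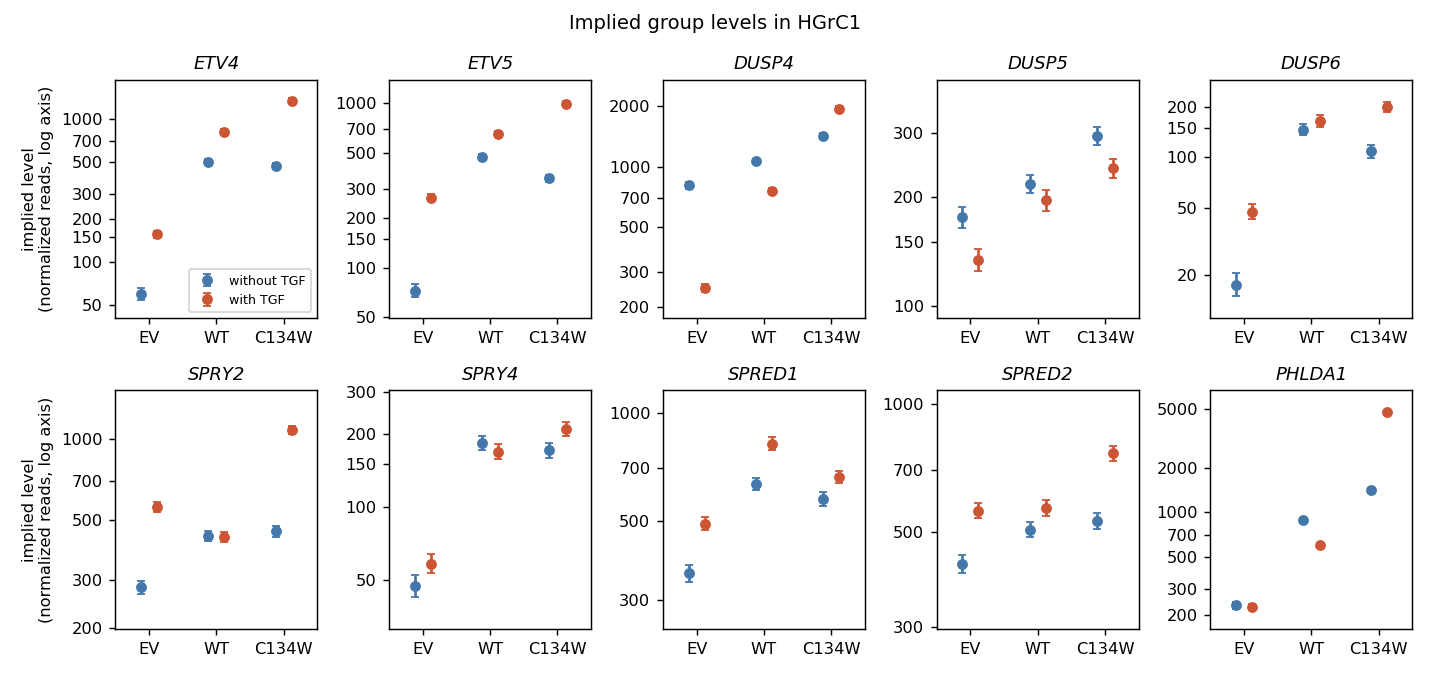
Implied level in normalized reads (y axis, log scale) of each gene in EV, WT and C134W cells, with TGF in red and without in blue, 1 panel per gene. Bars are 1 error derived from the deposited standard errors. The C134W group with TGF is highest for 8 of the 10 genes, DUSP5 and SPRED1 being the exceptions.

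Across the 6 HGrC1 groups the lowest level was in EV without TGF for 7 genes and in EV with TGF for DUSP4, DUSP5 and PHLDA1. The highest was in C134W with TGF for 8 genes, in C134W without TGF for DUSP5 and in WT with TGF for SPRED1. These orders compare groups within a gene, and neighbouring groups for which the text gives no test may differ by less than their errors.

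The dependence of the mutant's difference on TGF was tested directly, as the log2 fold change with TGF minus that without, over tables that share no library. For C134W against WT, 7 of the 10 genes had a more positive difference with TGF and none a more negative one, where 6.0% of 12509 genes were called more positive, 7.15% more negative and 13.1% in either direction. The median over the 10 was 0.70. PHLDA1 led all 12509 genes by the size of the z statistic, at 2.32 ± 0.09 (adjusted p = 5.34e-142). SPRY2 followed at 1.24 ± 0.12 (adjusted p = 1.14e-24), ETV5 at 1.01 ± 0.12, DUSP4 at 0.94 ± 0.09 and ETV4 at 0.80 ± 0.11. DUSP6 at 0.59 ± 0.19 (adjusted p = 0.0167) and SPRED2 at 0.36 ± 0.11 (adjusted p = 0.0155) passed with less room, and both are lost at an adjusted p under 0.01. Dividing the z statistics by their spread over all genes, 1.51, also ended the calls of DUSP6 and SPRED2. SPRY4 gave 0.38 ± 0.17 (adjusted p = 0.136), DUSP5 -0.11 ± 0.16 (adjusted p = 0.774) and SPRED1 -0.17 ± 0.11 (adjusted p = 0.378).

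For C134W against EV, DUSP4 at 2.14 ± 0.11 (adjusted p = 5.26e-77) and PHLDA1 at 1.84 ± 0.12 (adjusted p = 5.35e-47) depended on TGF, the 7th and 31st of 12595 genes by z statistic, where 9.78% of genes were called more positive, 9.40% more negative and 19.2% in either direction. The other 8 did not pass, with values from -0.24 ± 0.14 for SPRED1 to 0.28 ± 0.17 for ETV4. With the shrinkage of the deposited fold changes undone they still did not pass, and DUSP6 gave -0.57 ± 0.33, ETV5 -0.37 ± 0.18 and ETV4 0.13 ± 0.18.

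**Figure D3:**
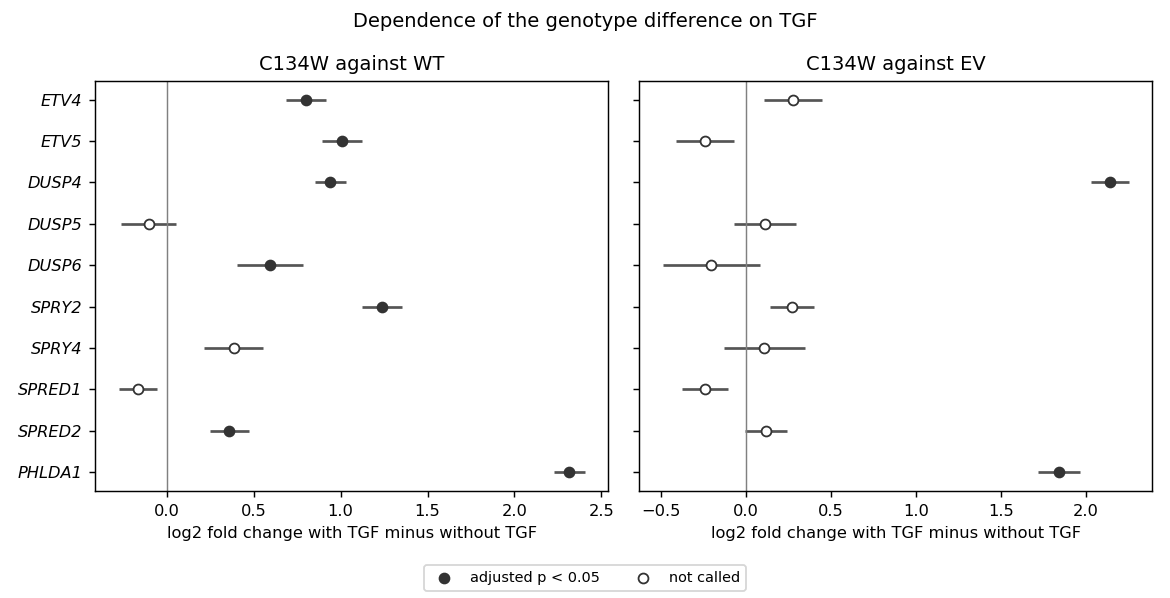
Log2 fold change with TGF minus that without (x axis) for C134W against WT (left) and C134W against EV (right), with the error of the difference as bars and filled points for an adjusted p under 0.05. PHLDA1 lies at 2.32 on the left, and DUSP4 at 2.14 and PHLDA1 at 1.84 are the filled points on the right.

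The implied levels with and without TGF give the TGF difference within each kind of cell. These ratios have no test, since levels with and without TGF come from separate tables put on 1 scale. In EV cells the log2 ratio was above 0 by over 2 errors for 6 genes, with 1.88 ± 0.14 for ETV5, 1.44 ± 0.28 for DUSP6, 1.39 ± 0.15 for ETV4 and 0.99 ± 0.10 for SPRY2. It was below 0 by over 2 errors for DUSP4 at -1.70 ± 0.09 and DUSP5 at -0.39 ± 0.14, and PHLDA1 gave -0.04 ± 0.10. In WT cells 3 genes were above 0 by over 2 errors and 2 below, from -0.56 ± 0.07 for PHLDA1 to 0.69 ± 0.09 for ETV4. In C134W cells 9 genes were above, with 1.77 ± 0.07 for PHLDA1, 1.52 ± 0.09 for ETV4, 1.51 ± 0.09 for ETV5 and 1.24 ± 0.08 for SPRY2, and DUSP5 was below at -0.30 ± 0.12. SPRY2 gave -0.02 ± 0.09 in WT, beside the values near 1 in EV and C134W. DUSP4 gave 0.45 ± 0.07 in C134W and -0.49 ± 0.07 in WT.

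In KGN tumor cells, which carry C134W on 1 allele, the TGF response was tested in a table of its own. The authors' deposited table called 4 of the 10 genes higher with TGF, 4 lower and 2 neither, where 19.8% of 15719 genes were called higher, 20.0% lower and 39.8% in either direction. The median log2 fold change of the 10 was 0.23, beside -0.02 over all genes tested. Dividing the Wald statistics by their spread over all genes left SPRY2 alone called. SPRY2 was higher by 1.50 ± 0.05 (adjusted p = 6.27e-178), the 24th largest Wald statistic of the authors' deposited table. Its implied level was 364 normalized reads without TGF and 1034 with, on a scale that applies to KGN alone. ETV4 was higher by 1.04 ± 0.13 (adjusted p = 9.66e-15), ETV5 by 0.40 ± 0.07 and SPRED2 by 0.36 ± 0.09 in the authors' deposited table.

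Among the genes lower with TGF in KGN were the ERK phosphatase DUSP6 and PHLDA1. The authors' deposited table gave PHLDA1 -0.74 ± 0.10 (adjusted p = 1.31e-13), DUSP6 -0.63 ± 0.11 (adjusted p = 2e-08), SPRED1 -0.49 ± 0.08 (adjusted p = 5.27e-08) and SPRY4 -0.39 ± 0.13 (adjusted p = 0.00679). The implied PHLDA1 level was 3303 normalized reads without TGF and 1966 with, and that of DUSP6 214 and 137. DUSP4 gave 0.28 ± 0.13 (adjusted p = 0.0759), and DUSP5, with a mean of only 15.8 normalized reads, gave 0.18 ± 0.26 (adjusted p = 0.629) in the authors' deposited table. The KGN and HGrC1 libraries carry different experiment numbers in the labels, so cell line and experiment cannot be told apart, and the 2 lines were not tested against each other. Set side by side, the log2 ratio with and without TGF was 1.77 ± 0.07 in C134W and -0.75 ± 0.10 in KGN for PHLDA1, and 1.24 ± 0.08 and 1.51 ± 0.05 for SPRY2. For the KGN level without TGF, assuming the 5 and 4 libraries of the labels moved SPRY2 by -0.14 and ETV4 by -0.10 on the log2 scale.

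**Figure D4:**
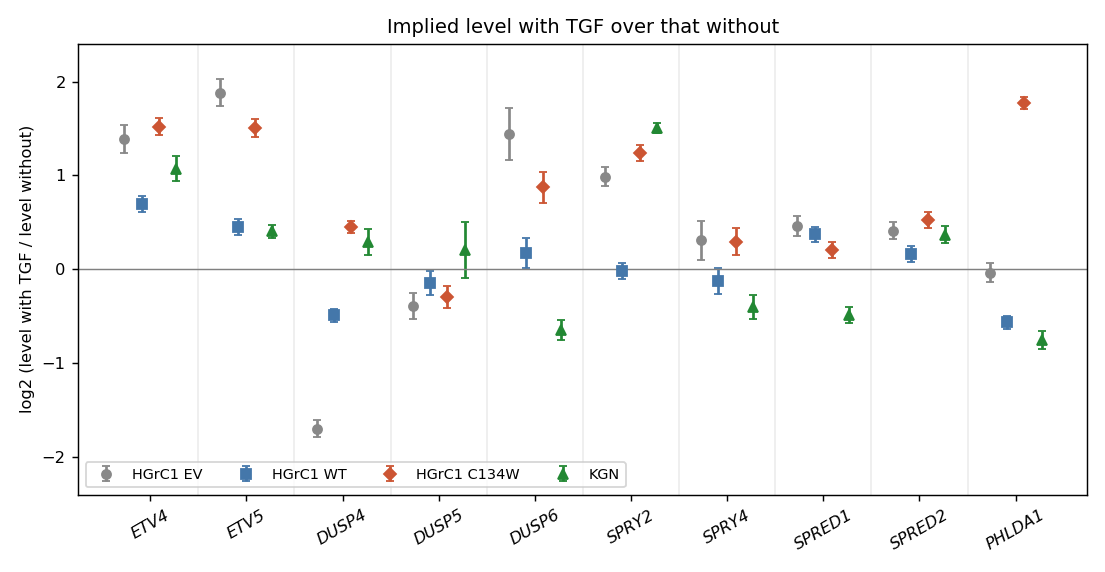
Log2 ratio of the implied level with TGF to that without (y axis) for each gene (x axis) in EV, WT, C134W and KGN cells, with 1 error as bars and no test. PHLDA1 lies above 0 in C134W alone, and SPRY2 lies above 0 in EV, C134W and KGN and at -0.02 in WT.

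The rest of the pathway was followed through 5 lists of other genes. Of 21 genes of the RAS, RAF, MEK and ERK core, the authors' deposited table of C134W against EV called 10 higher and 3 lower with TGF and 4 higher and 1 lower without, with medians of 0.20 and 0.03. Over all genes 22.5% were called higher and 20.2% lower with TGF, and 13.7% and 12% without. Dividing the Wald statistics by their spread over all genes gave 0 calls with TGF instead of 13 and 2 without instead of 5. With TGF, examples were KSR1, a scaffold of the kinase cascade, at 0.79 and MAPK3, which encodes ERK1, at -0.41 ± 0.10 in the authors' deposited table. Against WT, 5 of the 21 were higher and 7 lower with TGF in the authors' deposited table, where 34.6% of all genes were called, and that division gave 0 calls.

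The next list held 30 other genes known to be induced by ERK. Against EV, 18 of the 28 tested were higher in C134W and 6 lower with TGF, and 17 of 24 were higher and 6 lower without, in the authors' deposited tables, with medians of 0.89 and 0.74. Over all genes 42.7% were called in either direction with TGF and 25.7% without, and dividing by the spread gave 15 calls with TGF instead of 24. PLAU, which encodes urokinase, was higher by 3.87 ± 0.06 with TGF, the chromatin protein gene HMGA2 by 3.35 ± 0.06, the AP-1 factor gene FOS by 3.01 ± 0.16 and PHLDA2, a relative of PHLDA1, by 2.67 ± 0.13 in the authors' deposited table. Against WT with TGF the same list was even in direction, with 9 of 28 higher, 9 lower and a median of 0.10 in the authors' deposited table. Over all genes 17.3% were higher and 17.4% lower there, and the division gave 6 calls in the list instead of 18. PLAU was higher there by 1.81 ± 0.06, while PHLDA2 gave -0.09 in the authors' deposited table. Over all genes, the TGF dependence of C134W against WT called 6.0% more positive and 7.15% more negative. In this list it called 5 of 24 more positive and 8 more negative, with a median of 0.05, beside 7 and 0 of the 10 genes described above. That difference between the lists was not tested.

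Of 29 other genes listed as negative regulators of RAS and ERK, 12 of 28 were higher and 4 lower in C134W than in EV with TGF in the authors' deposited table, with a median of 0.18. That is 16 calls, where 42.7% of all genes were called, and dividing by the spread gave 3. The largest were RGS4, which restrains G protein signaling, at 1.47 ± 0.08, and FLRT3 at -1.13 ± 0.11 in the authors' deposited table. FLRT3 is an FGF receptor partner whose place among inhibitors is not secure, so its values are not read as a change in an inhibitor. FLRT3 was higher in C134W than in WT with TGF by 1.22 ± 0.16 and higher with TGF in KGN by 2.97 ± 0.25, per the authors' deposited tables.

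Upstream of ERK, 7 of 20 receptors were higher and 10 lower in C134W than in EV with TGF, and 8 of 18 ligands were higher and 8 lower, in the authors' deposited table, where 22.5% of all genes were higher and 20.2% lower. After dividing by the spread, 6 receptors instead of 17 and 4 ligands instead of 16 were called. F2RL1, which encodes the protease-activated receptor PAR2, was higher by 6.34 ± 0.19, and PDGFRB, a receptor for PDGF, was lower at -2.16 ± 0.07 in the authors' deposited table. Among ligands the largest values were FGF18 at -2.38 ± 0.13 and FGF2 at 1.41 ± 0.07 in the authors' deposited table. HBEGF, an EGF receptor ligand whose gene is also in the list of ERK-induced genes, was lower in C134W in all 4 HGrC1 comparisons, from -1.91 ± 0.09 against WT with TGF to -0.59 against EV without TGF, and lower with TGF in KGN at -0.97 ± 0.17, per the authors' deposited tables. In KGN 11 of 20 receptors were lower with TGF and 2 higher in the authors' deposited table, with a median of -0.29, where 39.8% of all genes were called. In place of these 13 calls, 8 passed at an adjusted p under 0.01, and 3 were called after dividing by the spread.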

How the data were processed

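RNA from HGrC1 and KGN cells was sequenced after TruSeq library preparation, per the labels' protocols. Trimmomatic 0.36.0, Bowtie2, HTSeq 0.6.1, DESeq2 and build hg38 are named in the submitters' processing notes, with no roles. Not given in the sources used here were the annotation and the DESeq2 version. Per gene, the tables the authors deposited hold a mean signal of counts divided by size factors, a log2 fold change (first-named group over second) with its standard error, a Wald score, a p-value and a Benjamini-Hochberg adjusted p-value. No values per library were used, so no test was refitted.

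The authors' DESeq2 Wald test was the main test. Differences between 2 tables were tested here by a two-sided z test with the root of the summed squared errors, adjusted by Benjamini-Hochberg across genes whose mean reached 10 in both tables. In low genes the fold changes showed the pull of a zero-centred normal prior. It was removed for group levels and, as an alternative, for differences between 2 tables, its width being taken from the largest standard error in a table. The level of C134W then agreed between the tables it shares to a median of 0.0027 (log2, with TGF) and 0.0020 (without). Levels were put on 1 scale through 9194 genes whose mean reached 100. Errors of levels assume 1 dispersion in both groups. Single-read genes gave library numbers and depth. Deeper libraries have smaller counting error, which the standard errors include. Groups came from sample titles. Named list genes were at most 4 per list, those with the largest change between C134W and EV with TGF among called genes with a mean of at least 100. The members and lists were chosen with earlier results of these data known. Scripts, tested on simulated data, used Python 3.11.15, numpy 2.4.6, pandas 2.3.3, scipy 1.17.1 and matplotlib 3.10.9. Alternatives were another threshold, filter, adjustment, centring, prior and spread of the test statistic.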

Additional observations from a re-analysis of the deposited data

Results flagged for a closer look

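The difference between C134W and WT was itself tested between the TGF states, and 7 genes are singled out because it passed. With TGF it was more positive by 2.32 for PHLDA1, 1.24 for SPRY2, 1.01 for ETV5, 0.94 for DUSP4, 0.80 for ETV4, 0.59 for DUSP6 and 0.36 for SPRED2 (log2, two-sided z test, adjusted p under 0.05). The calls of DUSP6 and SPRED2 were lost at an adjusted p under 0.01 and after dividing the statistics by their spread over all genes. ETV5 and DUSP6 lay below WT without TGF. For C134W against EV the same test singled out DUSP4 at 2.14 and PHLDA1 at 1.84. The 2 contrasts share the C134W libraries.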

How the results depend on the processing

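No paired analysis was possible because the tables hold results per comparison and no values per library, and for the same reason no sample could be left out in turn. Of 67 alternatives to the counts of genes called, 63 stayed within 1.5 times the main count and none reversed a direction. The 4 others came from dividing the test statistics by their robust spread over all genes (1.80 to 3.16 in these comparisons). Under it C134W against WT called 4 genes with TGF instead of 7 (ETV5, SPRED1 and SPRED2 lost) and 2 without instead of 5 (ETV5, DUSP5 and DUSP6 lost). KGN called 1 instead of 8, SPRY2, and WT against EV with TGF 4 instead of 9 (DUSP5, DUSP6, SPRY2, SPRY4 and SPRED1 lost). Centring subtracted a median difference of at most 0.05 in size, which was not the median of all genes tested. In C134W against WT with TGF the subtracted value was -0.020, beside 0.001 for all genes tested. There it brought DUSP5 and SPRY4 past the threshold. SPRED2 passed in WT against EV without TGF when the error held only the WT and EV levels, an alternative chosen after seeing the data. With the prior not undone, the log2 ratio of DUSP6 with and without TGF in EV was 1.13 instead of 1.44. Fold changes of the 10 genes gave 436 alternatives on the same side of the threshold, 31 weaker and 3 stronger, and their levels 199 within 1 error and 1 beyond it. Counts over the pathway lists stayed within 1.5 times in 190 alternatives and moved in 45. Low means limit DUSP5 in KGN and DUSP6 in EV.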
